A study of Sus scrofa with 4 samples.

Results

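The 10 genes described here encode the enzymes that hydroxylate and crosslink collagen chains, and all 10 were found by gene name among the 29837 named genes of the counts. They are the 5 lysyl oxidases LOX, LOXL1, LOXL2, LOXL3 and LOXL4, the 3 lysyl hydroxylases PLOD1, PLOD2 and PLOD3, and P4HA1 and P4HA2, which are catalytic alpha subunits of prolyl 4-hydroxylase. The members were set by family, not by their values. RNA was measured in epidermal cells of juvenile pigs 88R and 95R, which carried H2B-GFP under the LGR5 promoter at one LGR5 allele, so that the reporter took the place of LGR5 on that allele in both sorted populations. The cells of each pig were sorted by GFP into 1 LGR5-high and 1 LGR5-negative library, with no other treatment. Propidium iodide served to tell live from dead cells. The reporter line came from edited cell clones through nuclear transfer, and LGR5-negative cells are the mixed cells of the preparation without GFP signal. Cells of low GFP were sorted apart and are in neither population.

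Collagen chains are modified inside the cell before they fold and again after they leave it. Prolyl 4-hydroxylases, built from an alpha subunit and the P4HB subunit, hydroxylate prolines and so make the triple helix stable, while lysyl hydroxylases prepare lysines for glycosylation and crosslinking. Outside the cell, the copper-dependent lysyl oxidases convert lysines of collagen and elastin to aldehydes, which then join neighbouring chains. In skin these enzymes are best known from dermal fibroblasts, and keratinocytes, which make basement membrane collagens, use them as well.

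Where values of a population are given as a pair, pig 88R comes first and pig 95R follows. That populations did not overlap is a description only. With 2 libraries in each, they often separate without a true difference, and the share over all tested genes is not given. The 4 libraries held between 30696803 and 32463362 counts on named genes. Levels are given as CPM, counts scaled to a common depth with the trimmed mean of M-values (TMM), on which scale the floor of 3 counts lay between 0.0873 and 0.105 CPM. LGR5 had 132 and 188 CPM in the LGR5-high libraries and 1.26 and 3.61 CPM in the LGR5-negative libraries, which checks the labels but is no separate result, since its own reporter set the sort. KRT5, the basal keratin, had between 23664 and 29558 CPM in the 4 libraries. Of the 6 keratinocyte markers tested, 1 was higher, 2 were lower and 3 were not called. The lower ones were KRT1 and KRT10, of which the paper uses KRT10 as a marker of differentiated epidermis. KRT1 had 2636 and 2286 CPM in LGR5-high and 31266 and 26755 CPM in LGR5-negative. KRT10 had 2771 and 2557 CPM in LGR5-high and 31045 and 26592 CPM in LGR5-negative. What part differentiated cells had in the enzyme values was not tested. By edgeR's quasi-likelihood test, at adjusted p-values under 0.05, LGR5-high was higher for 22.7% and lower for 22.0% of the 15980 tested genes (3632 and 3508). Scaling by library size alone gave 5473 and 2326. It moved the median log2 fold change over these genes from 0.02 to 0.24, and upper quartile scaling moved it to 0.11, so the changes below are relative to the TMM median.

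The collagen-modifying enzymes changed in both directions, and the direction differed within the lysyl oxidases and within the lysyl hydroxylases. LOXL1, LOXL2, PLOD2 and, at a low level, LOX were higher in LGR5-high cells, and LOXL4, PLOD1, P4HA1 and P4HA2 were lower. LOXL1 differed most, with a 56.7-fold higher level in LGR5-high. The filter on low counts passed 9 of the 10 members, and LOXL3 was not tested. Of these 9, 4 were called higher and 4 lower, beside the background of 22.7% and 22.0% over all tested genes, and PLOD3 missed the threshold. Their median log2 fold change was 0.30, against 0.02 over all tested genes. A fall in the number of cells that express a gene and a fall in its RNA per cell cannot be told apart in these sorted bulk samples.

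**Figure D1:**
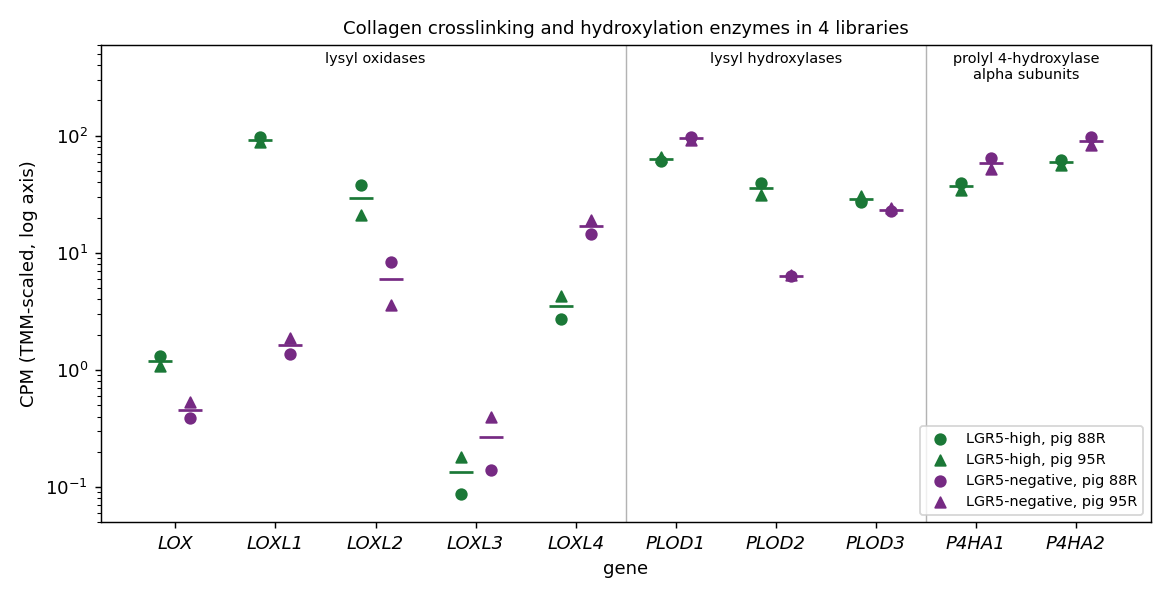
Level of each of the 10 enzymes in the 4 libraries, as TMM-scaled CPM on a log axis. Green marks LGR5-high and purple LGR5-negative, circles are pig 88R and triangles pig 95R, and short lines are the means over the 2 pigs. LOXL1 stands near 100 CPM in LGR5-high and below 2 CPM in LGR5-negative, while P4HA1 and P4HA2 are both slightly lower in LGR5-high.

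Among the lysyl oxidases, LOXL1 carried the largest difference of any member. LOXL1 is known for its part in elastic fibre upkeep, through its binding to the fibulin encoded by FBLN5. LOXL1 had 96.6 and 88.8 CPM in the LGR5-high libraries, and 1.37 and 1.89 CPM in the LGR5-negative libraries, from 3322, 2933, 39 and 57 counts. Both LGR5-high libraries lay far above both LGR5-negative libraries. The log2 fold change of LOXL1 was 5.82 (standard error, SE, 0.168, edgeR adjusted p = 4.09e-05), with 6.08 within pig 88R and 5.51 within pig 95R. By the size of its increase LOXL1 ranked 121 among the tested genes.

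LOXL2, which can crosslink type IV collagen of basement membranes, was also higher in LGR5-high. It had 38.2 and 21.1 CPM in the LGR5-high libraries, and 8.32 and 3.61 CPM in the LGR5-negative libraries. The populations did not overlap, and pig 88R had the higher level in each of them. The log2 fold change of LOXL2 was 2.32 (SE 0.454, edgeR adjusted p = 0.00961), and within pigs it was 2.19 for pig 88R and 2.53 for pig 95R. A replicate block for the pig gave a log2 fold change of 2.35 (SE 0.145). Without the LGR5-negative library of pig 88R, the fold of LOXL2 went from 4.98 to 8.17, and without that of pig 95R to 3.54. Without the LGR5-high library of pig 88R the fold was 3.51, and without that of pig 95R it was 6.43.

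LOX, the founding enzyme of the family, was scarce in all 4 libraries. It had 1.31 and 1.09 CPM in the LGR5-high libraries (from 45 and 36 reads), and 0.386 and 0.529 CPM in the LGR5-negative ones (from 11 and 16 reads). The populations did not overlap, and its log2 fold change was 1.38 (SE 0.377, edgeR adjusted p = 0.0296). The call of LOX rested on all 4 libraries, since the adjusted p-value of edgeR's test was 0.168 without the LGR5-high library of pig 88R, 0.102 without that of pig 95R, 0.122 without the LGR5-negative library of pig 88R and 0.0566 without that of pig 95R. DESeq2 did not call LOX either (adjusted p = 0.116). LOXL3 was at the limit of detection, where pig 88R gave 3 counts in LGR5-high and 4 in LGR5-negative and pig 95R gave 6 and 12. At this depth no difference in LOXL3 was detectable, and with all genes of at least 1 count in the test its adjusted p-value by edgeR was 0.425.

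LOXL4 went the other way. Like LOXL2 and LOXL3, its protein carries scavenger receptor cysteine-rich domains before the oxidase domain. LOXL4 had 2.73 and 4.30 CPM in the LGR5-high libraries, and 14.6 and 19.2 CPM in the LGR5-negative libraries. Both LGR5-negative libraries lay above both LGR5-high libraries, and pig 95R was higher in each population. The log2 fold change of LOXL4 was -2.26 (SE 0.271, edgeR adjusted p = 0.00161), with -2.39 for pig 88R and -2.14 for pig 95R. Within one pig, the log2 fold changes of LOXL1 and LOXL4 were 8.46 apart in pig 88R and 7.65 apart in pig 95R.

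**Figure D2:**
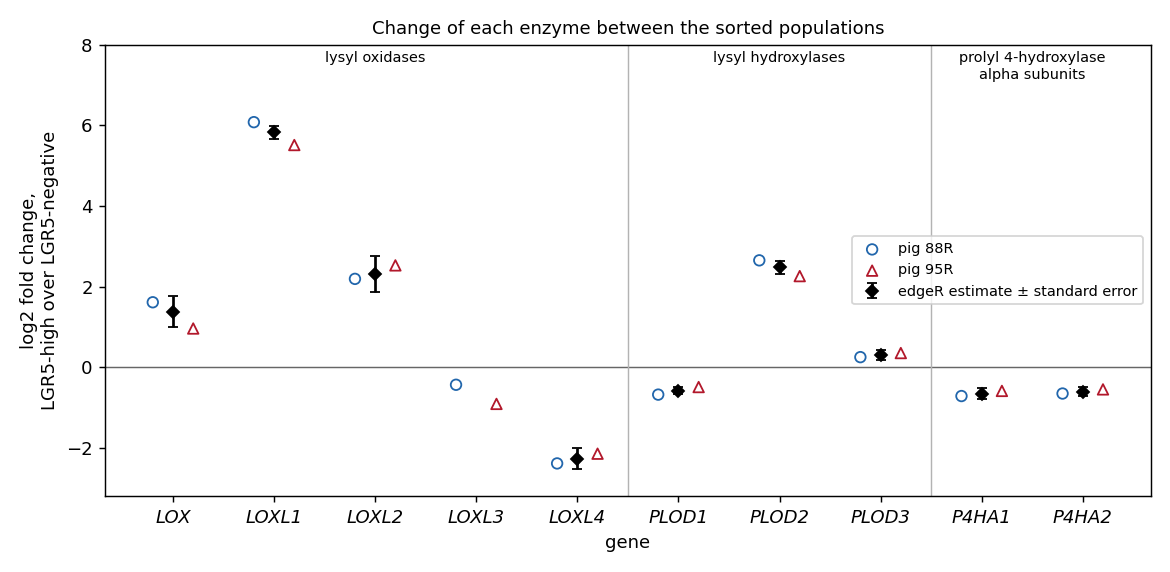
Log2 fold change of each enzyme, LGR5-high over LGR5-negative. Black diamonds with bars are edgeR estimates with their standard errors over the 4 libraries, and open symbols are the values within pig 88R (circles) and pig 95R (triangles); LOXL3 was not tested and has only the within-pig values. Both pigs lie on the same side of 0 for every gene, from 5.82 for LOXL1 to -2.26 for LOXL4.

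The lysyl oxidase counts therefore came from different genes in the 2 populations. Shares are compared here only between libraries for the same gene, since counts were not divided by transcript length, and their Wilson intervals cover counting error only. LOXL1 made up 69.5% (95% interval 68.2 to 70.8) and 76.9% (75.6 to 78.2) of the family's counts in the LGR5-high libraries. In the LGR5-negative libraries its share was 5.52% (4.07 to 7.46) and 7.35% (5.72 to 9.41). The share of LOXL4 was 1.97% (1.61 to 2.40) and 3.72% (3.17 to 4.37) in LGR5-high, and 58.8% (55.1 to 62.4) and 75.0% (71.8 to 77.9) in LGR5-negative. The intervals of the populations lay far apart for both genes. LOXL2 did not separate in this way, with shares of 27.5% and 18.3% in LGR5-high and 33.6% and 14.1% in LGR5-negative. The summed level of the 5 genes was 139 and 115 CPM in the LGR5-high libraries and 24.8 and 25.6 CPM in the LGR5-negative libraries, a ratio of the means of 5.05.

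The lysyl hydroxylases differed from one another as well. PLOD2 encodes the enzyme that hydroxylates lysines in the end regions of collagen chains, the step that leads to the more stable type of crosslink. PLOD2 had 39.8 and 31.5 CPM in the LGR5-high libraries, and 6.28 and 6.52 CPM in the LGR5-negative libraries. The LGR5-negative libraries were nearly equal, and both LGR5-high libraries lay well above them. Its log2 fold change was 2.48 (SE 0.160, edgeR adjusted p = 2.10e-04), with 2.65 for pig 88R and 2.26 for pig 95R.

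PLOD1, which hydroxylates lysines within the triple helix, was lower in LGR5-high. It had 60.7 and 65.7 CPM in the LGR5-high libraries, and 97.2 and 92.5 CPM in the LGR5-negative libraries. The populations did not overlap, and the log2 fold change was -0.59 (SE 0.0850, edgeR adjusted p = 0.00331). PLOD3, whose product also has glycosyltransferase activity, had 27.0 and 30.8 CPM in LGR5-high and 22.7 and 24.1 CPM in LGR5-negative. Both LGR5-high libraries were slightly above the LGR5-negative ones, but the log2 fold change of 0.30 (SE 0.119) did not pass the threshold (edgeR adjusted p = 0.0863). Fitted with a replicate block for the pig, PLOD3 passed, at 0.30 (edgeR adjusted p = 0.0363), and it also passed with library size only (adjusted p = 0.0146) and with upper quartile scaling (adjusted p = 0.0427). It did not pass with DESeq2, either with the same block (adjusted p = 0.221) or without it, or with limma-voom (adjusted p = 0.0852). With the block, 5 of the 9 members were higher and 4 lower, where 28.5% and 27.2% of all tested genes were.

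On the TMM scale, the summed level of the 3 lysyl hydroxylase genes hardly moved, although 2 of the 3 were called. It was 127 and 128 CPM in the LGR5-high libraries and 126 and 123 CPM in the LGR5-negative libraries, a ratio of the means of 1.02. This total depends on the scaling and was not divided by transcript length. With library size only, the log2 fold changes were -0.36 for PLOD1, 2.70 for PLOD2 and 0.53 for PLOD3. The share of PLOD1 in the family's counts was 47.6% (95% interval 46.1 to 49.1) and 51.4% (49.9 to 52.9) in the LGR5-high libraries, and 77.1% (75.7 to 78.4) and 75.1% (73.7 to 76.5) in the LGR5-negative libraries. That of PLOD2 was 31.2% (29.9 to 32.6) and 24.6% (23.3 to 25.9) in LGR5-high, and 4.98% (4.31 to 5.74) and 5.29% (4.62 to 6.06) in LGR5-negative. In both pigs the share of PLOD1 was lower and that of PLOD2 higher in LGR5-high. PLOD3 stayed between 18.0% and 24.1% of the counts in the 4 libraries.

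**Figure D3:**
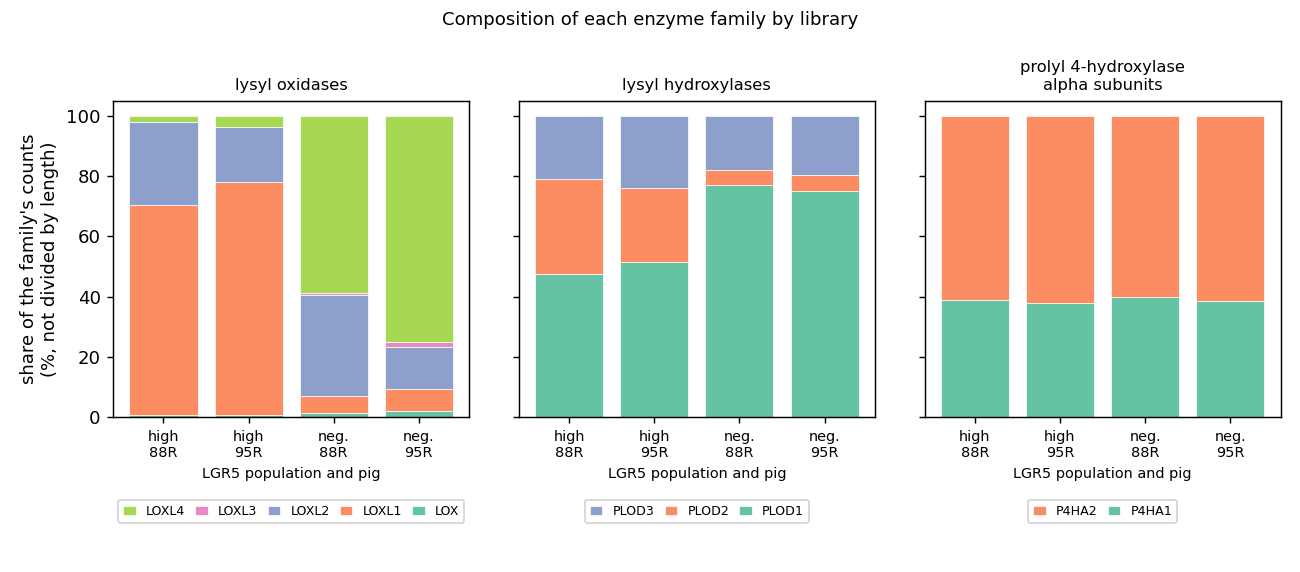
Share of each gene in the counts of its family, in percent, for the 2 LGR5-high and 2 LGR5-negative (neg.) libraries of pigs 88R and 95R, without division by transcript length. LOXL1 fills most of the LGR5-high bars and LOXL4 most of the LGR5-negative bars, PLOD2 is wider in LGR5-high, and the bars of P4HA1 and P4HA2 look alike in all 4 libraries.

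P4HA1 and P4HA2 were both lower in LGR5-high, by 1.58-fold and 1.52-fold. P4HA1 had 39.6 and 34.5 CPM in the LGR5-high libraries, and 65.1 and 51.9 CPM in the LGR5-negative libraries. P4HA2 had 62.5 and 56.7 CPM in the LGR5-high libraries and 98.4 and 83.1 CPM in the LGR5-negative libraries. For both genes the LGR5-negative libraries lay above the LGR5-high ones, and pig 88R was higher than pig 95R in each population. The log2 fold change was -0.66 for P4HA1 (SE 0.142, edgeR adjusted p = 0.0136) and -0.61 for P4HA2 (SE 0.112, edgeR adjusted p = 0.00799). Both calls were lost without the LGR5-high library of pig 95R, where edgeR's adjusted p-value was 0.0831 for P4HA1 and 0.0574 for P4HA2. The share of P4HA1 in the counts of the pair lay between 37.8% and 39.8% in the 4 libraries. The log2 fold changes of P4HA1 and P4HA2 differed by 0.06 in pig 88R and by 0.04 in pig 95R. P4HA3, a further alpha subunit that is no member and is named here after its values were seen, was scarce, with 1.22 and 0.696 CPM in LGR5-high and 0.877 and 0.563 CPM in LGR5-negative. The populations overlapped, and its log2 fold change of 0.42 (SE 0.452) was not called (edgeR adjusted p = 0.487).

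Other genes lie over or beside some members, and the strand setting of the counting is not given in the sources used here. In the RefSeq annotation of Sscrofa11.1, the spans of 6 of the 10 members overlapped another gene. PLOD3 overlapped ZNHIT1, which had 913 and 935 counts in LGR5-high and 639 and 628 in LGR5-negative, a difference in the same direction as that of PLOD3. P4HA2 overlapped PDLIM4, which had 682 and 644 counts in LGR5-high and 193 and 235 in LGR5-negative, the opposite direction to P4HA2. P4HA1 overlapped NUDT13, with 367 and 395 counts in LGR5-high and 528 and 569 in LGR5-negative, the same direction as P4HA1. The scarce LOXL3 overlapped HTRA2, which had between 359 and 657 counts in each library. P4HA2 also overlapped SLC22A4, with 79 and 51 counts in LGR5-high and 81 and 110 in LGR5-negative. These counts were nearly equal in pig 88R and went in the direction of P4HA2 in pig 95R. LOX overlapped LOC100525452, with 6 and 11 counts in LGR5-high and 1 and 10 in LGR5-negative. LOXL1 overlapped a long non-coding RNA with at most 18 counts in any library. What part shared reads had in these values was not tested.

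The genes that act with these enzymes were followed as 6 lists, with 65 of 69 genes tested. Of these, 23 (35.4%) were higher and 16 (24.6%) lower in LGR5-high, where 22.7% and 22.0% of all tested genes were. With the replicate block 28 (43.1%) were higher and 19 (29.2%) lower, beside 28.5% and 27.2%. The share of lower genes was thus close to the background in both fits. The median log2 fold change was 0.09, against 0.02 over all tested genes. The counts of each list below are to be read beside the same background, and the shorter lists hold too few genes for a share to tell.

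Of the 8 genes listed as partners of prolyl hydroxylation, 1 was higher, 1 lower and 6 were not called. With the replicate block 2 were higher and 3 lower, since P3H3 (0.50, this and the next 2 genes named after their values were seen) was then called higher and P3H2 (-0.78) and CRTAP (-0.34) lower, with edgeR adjusted p-values of 0.00857, 2.93e-05 and 0.00506. P4HB, the beta subunit that pairs with P4HA1 and P4HA2, had 316 CPM in both LGR5-high libraries and 437 and 372 CPM in the LGR5-negative libraries. Its log2 fold change was -0.35 (SE 0.101, edgeR adjusted p = 0.0339), in the direction of P4HA1 and P4HA2, and the call was lost with library size only (-0.13), with upper quartile scaling (-0.26) and when any library other than the LGR5-negative library of pig 95R was left out. P3H4, whose product forms a complex with the PLOD1 enzyme, had 26.1 and 29.5 CPM in LGR5-high and 9.90 and 9.60 CPM in LGR5-negative. Its log2 fold change was 1.51 (SE 0.128), the opposite direction to PLOD1 (-0.59).

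Among the 4 tested partners of lysyl hydroxylation and glycosylation, 1 gene was higher and 1 lower, and the replicate block called FKBP14, also named after its values were seen, higher as well (0.91). FKBP10, whose product is needed for the activity of the PLOD2 enzyme, had 24.6 and 25.7 CPM in the LGR5-high libraries and 2.56 and 2.55 CPM in the LGR5-negative libraries. It was thus higher in the same population as PLOD2, with a log2 fold change of 3.29 (SE 0.141, edgeR adjusted p = 7.57e-05). COLGALT1, which adds galactose to hydroxylated lysines, was lower, with 86.9 and 96.5 CPM in LGR5-high and 223 and 226 CPM in LGR5-negative. Its log2 fold change was -1.29 (SE 0.0864), in the direction of PLOD1.

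Of the 10 tested genes for collagen chaperones, secretion and propeptide processing, 6 were higher, 1 was lower and 3 were not called. The propeptidase gene ADAMTS2 had a log2 fold change of 3.13 (SE 0.173), ADAMTS3 one of 2.52 (SE 0.234) and BMP1 one of 2.43 (SE 0.267). BMP1 encodes the enzyme that removes the C-terminal propeptide of fibrillar collagens and also cleaves the precursor of LOX, and it had 67.2 and 70.7 CPM in LGR5-high and 9.09 and 16.4 CPM in LGR5-negative. MIA3, which loads procollagen into transport carriers, was the gene called lower, at -0.63 (SE 0.0770).

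Of the 17 genes for lysyl oxidase substrates and other crosslinking, 11 were higher, 3 were lower and 3 were not called. PXDN, whose enzyme forms a different crosslink within type IV collagen, had the largest log2 fold change of the 6 lists at 5.69 (SE 0.185), from 63.1 and 63.6 CPM in LGR5-high and 0.983 and 1.46 CPM in LGR5-negative. FMOD, a collagen-binding proteoglycan, was at 5.11 (SE 0.192), and the basement membrane collagen gene COL4A2 at 4.59 (SE 0.214). Others called higher, named after their values were seen, were FBLN5 and the collagen genes COL1A2 and COL1A1. Their log2 fold changes were 3.77 (SE 0.443), 3.70 (SE 0.408) and 1.85 (SE 0.545). That of COL1A1 (edgeR adjusted p = 0.0374) was 0.60 within pig 88R and 3.15 within pig 95R. The genes called lower were COL3A1 at -3.09 (SE 0.529), the elastin gene ELN at -1.76 (SE 0.396) and POSTN at -0.82 (SE 0.0884). ELN, a substrate of LOX and LOXL1, had only 0.814 and 1.60 CPM in the LGR5-high libraries and 4.77 and 3.44 CPM in the LGR5-negative libraries, and its call was lost without the LGR5-high library of pig 88R. Without the LGR5-negative library of pig 88R, COL3A1 was at -2.08, and without that of pig 95R at -3.69.

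**Figure D4:**
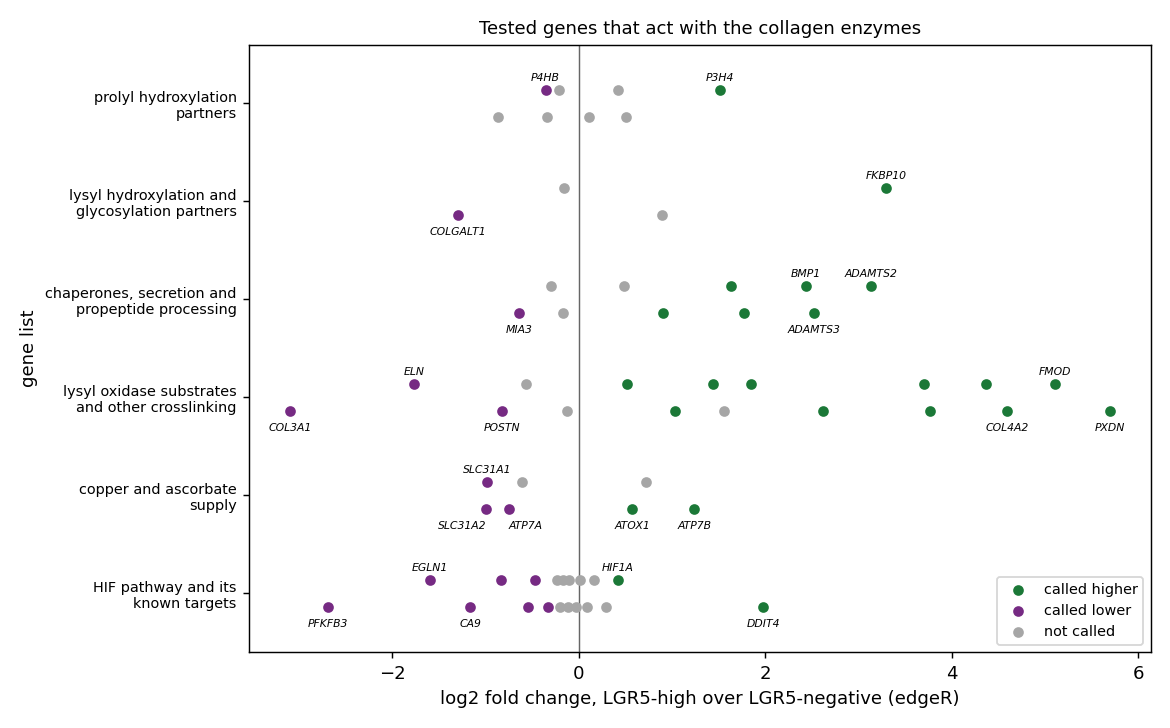
Log2 fold changes (edgeR, LGR5-high over LGR5-negative) of the 65 tested genes of the 6 lists, 1 point per gene. Green points were called higher, purple points lower and grey points were not called, and points are offset vertically only for legibility. The points of the crosslinking list reach from COL3A1 at -3.09 to PXDN at 5.69, and most HIF pathway points lie near or below 0.

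Lysyl oxidases need copper and the hydroxylases need ascorbate, and the 7 genes that supply them gave 2 higher, 3 lower and 2 not called. SLC31A1, which encodes the main copper importer, and its relative SLC31A2 were lower, with log2 fold changes of -0.98 (SE 0.0761) and -0.99 (SE 0.125). ATP7A, which pumps copper into the compartment where lysyl oxidases are loaded, was lower as well, at -0.75 (SE 0.109). Its relative ATP7B was higher at 1.24 (SE 0.213), and so was the copper chaperone gene ATOX1 at 0.57 (SE 0.142). The call of ATOX1 was lost without either LGR5-high library and without the LGR5-negative library of pig 95R.

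P4HA1, P4HA2, PLOD2 and LOX are known to be induced through hypoxia-inducible factors (HIF), and 2 of the 19 tested genes of that pathway were higher, 7 lower and 10 not called. DDIT4 was higher at a log2 fold change of 1.98 (SE 0.0811) and HIF1A at 0.42 (SE 0.0738). PFKFB3, with 92.0 and 99.8 CPM in LGR5-high and 541 and 692 CPM in LGR5-negative, was lower at -2.68 (SE 0.142). EGLN1 and the carbonic anhydrase gene CA9 were lower at -1.59 (SE 0.176) and -1.16 (SE 0.103). These 4 members did not share a direction, with 2 of them higher and 2 lower.

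Markers of other cell types also differed between the populations, in both directions. Of 8 fibroblast markers, 2 were higher and 6 lower in LGR5-high. Their summed level was 616 and 608 CPM in the LGR5-high libraries and 540 and 321 CPM in the LGR5-negative libraries, of which THY1 alone gave 504 and 466 CPM in LGR5-high. LUM had 0.145 and 0 CPM in LGR5-high and 1.65 and 1.03 CPM in LGR5-negative. PDGFRA had 0.116 and 0.0908 CPM in LGR5-high and 0.737 and 0.695 CPM in LGR5-negative. The LGR5-high values of both were near or below the floor. DCN, also lower, had 83.4 and 112 CPM in LGR5-high and 182 and 163 CPM in LGR5-negative. COL6A3 and DPT were lower as well. The higher markers were THY1, with 267 and 117 CPM in LGR5-negative, and FBLN1. FBLN1 had 22.0 and 23.0 CPM in LGR5-high and 7.69 and 6.75 CPM in LGR5-negative. COL3A1 belongs to both this list and that of the substrates.

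All 5 tested genes of the 6 smooth muscle and pericyte markers were higher, with a summed level of 406 and 293 CPM in LGR5-high and 15.9 and 15.2 CPM in LGR5-negative. TAGLN gave 389 and 277 CPM of it in LGR5-high, ACTA2 gave 3.90 and 4.30 CPM, and DES was at 0 and 0.0605 CPM. CNN1 had 4.83 and 4.57 CPM in LGR5-high and 0.386 and 0.331 CPM in LGR5-negative, and MYH11 and RGS5 were higher too. Of the 6 dermal papilla markers 3 were tested, with 1 higher. It was HHIP, with 2.79 and 3.51 CPM in LGR5-high and 0.351 and 0.430 CPM in LGR5-negative. SOX2, which was not tested, was at 0.0873 and 0.151 CPM in LGR5-high and at 0 in LGR5-negative. The 5 tested immune markers were all lower, with a summed level between 7.17 and 9.19 CPM in LGR5-high and between 103 and 146 CPM in LGR5-negative. Of 6 melanocyte markers 4 were lower, with sums of 61.9 CPM in both LGR5-high libraries and 82.7 and 256 CPM in LGR5-negative, and of 6 endothelial markers 4 were lower and 1 higher, with sums between 9.28 and 11.6 CPM against 19.6 and 21.9 CPM. The part of these cell types in the enzyme values was not tested.

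The genes whose pattern over the 4 libraries was most like that of the leading member of each family were found by the root mean square difference of mean-centred log2 CPM. For LOXL1 these were THSD7B at 0.0483, the matrix metalloproteinase gene MMP2 at 0.0733 and the collagen gene COL8A2 at 0.0774. In all, 4 genes lay within 0.1. The mean level of THSD7B in LGR5-negative was only 0.186 CPM. Its fitted log2 fold change was 6.08, against 5.82 for LOXL1, and its distance depends on the prior count of 2 in log2 CPM. For PLOD2 the genes most alike were BCHE at 0.0196, LOC110260812 at 0.0433 and SEMA5B at 0.0535, with 13 genes within 0.1. The mean level of BCHE was 2.25 CPM for LGR5-high against 0.357 CPM for LGR5-negative. LOC110260812 had 4 counts in each LGR5-negative library and SEMA5B 1, near or below the floor. Their fitted log2 fold changes were 2.91 and 3.56, against 2.48 for PLOD2, and their distances depend on the prior count of 2 in log2 CPM. P4HA1 had 209 genes within 0.1, led by PHACTR3, MRI1 and LBR at 0.0120, 0.0200 and 0.0224, of which PHACTR3 was itself not called (edgeR adjusted p = 0.222).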

How the data were processed

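Epidermal cells sorted from pigs 88R and 95R had been used for paired-end sequencing of poly(A) RNA. For each gene symbol, the authors deposited the raw count of every library, not normalized. The submitters' processing notes name Trimmomatic 0.36, STAR 2.5.2b and featureCounts of Subread 1.5.2, and the genome build, annotation and strand setting are not given in the sources used here. All 29837 named genes matched a RefSeq symbol of Sscrofa11.1, from which only names and neighbouring genes were taken. An entry without a name, with 0.36% to 0.626% of the counts, was left out. Totals are given in the results, and 3 counts were taken as the floor, which covers counting error only.

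The 2 populations were tested in edgeR 4.0.16 (R 4.3.3) across all genes that passed filterByExpr (minimum count 10, total 15), with TMM scaling, the population as the only term, 2-sided quasi-likelihood p-values and Benjamini-Hochberg adjustment over all 15980 tested genes. Calls are adjusted p-values under 0.05. Standard errors are the log2 fold change divided by the square root of its F value. The prior count was 0.125 in the test and 2 for the fold changes within pigs. Both libraries of a pig came from the same animal, so that the pig pairs them, and over the tested genes their deviations from the means of the populations were correlated at 0.370. With 2 pigs, each population has 2 libraries, and edgeR estimated the spread behind its p-values with information shared over all tested genes. Only Student's t-test, among the alternatives, rests on each gene's own spread between the 2 libraries of each population.

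The alternatives were library size only, upper quartile scaling or the DESeq2 size factors instead of TMM, a filter that kept every gene with 1 count or more, a filter of 10 counts in each library, the pig as a replicate block, DESeq2 1.42.0 with and without the block, limma-voom (limma 3.58.1), Student's t-test, which the study's methods name, here on log2(CPM + 1), Bonferroni adjustment, and leaving out each library in turn. The scripts were tested on simulated data. The members, gene lists and tests were chosen with earlier results of these data known. The genes named by rule are the 10 members and the partners P4HB, P3H4, COLGALT1 and FKBP10. From each list come up to 3 called genes with the largest increase and up to 3 with the largest decrease. For each family's most changed member, the 3 genes most like it are named. Other genes of the lists, marked as named after their values were seen, were not followed through all the alternatives. Plots were drawn with matplotlib 3.10.9. One keratin of the keratinocyte markers was not analysed here, and no transcript lengths or sequences were used.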

Additional observations from a re-analysis of the deposited data

How the results depend on the processing

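None of the 9 tested members and none of the 24 genes of the lists named by rule changed direction under any of the 15 alternatives. Genes named after their values were seen are not among the 24. LOXL1 was the member called under all 15 alternatives, with an adjusted p-value of at most 0.0417. For settings beyond 1.5 times the main counts the cause was not tested. By Student's t-test (log2 CPM), 1 member was called higher and 0 lower, with 3 and 2 at an unadjusted p-value under 0.05. It called 6 and 4 genes of the lists, and 544 and 502 of all 15980 tested genes. Under Bonferroni adjustment of edgeR, 1 member stayed higher and 0 lower, with 5 and 4 at an unadjusted p-value under 0.05. Of the lists 6 and 1 genes stayed, and of all tested genes 194 and 130. Benjamini-Hochberg adjustment of edgeR gave 4 and 4 members, 23 and 16 genes of the lists, and 3632 and 3508 of all tested genes.

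With each library left out in turn, P4HA1 had log2 fold changes between -0.82 and -0.49 and P4HA2 between -0.73 and -0.49. Without the LGR5-high library of pig 95R both lost their calls. Each fit with a library left out also called fewer of all tested genes than the main fit did. Leaving out any library lost the call of LOX, and a population left with 1 library was then assumed to vary like the other. The other 9 settings, which include the replicate block, gave between 3 and 5 members higher and 4 lower. Over all genes tested in each, between 14105 and 23144, they called 3002 to 5473 higher and 2326 to 4342 lower. With the replicate block in edgeR, PLOD3 was called at a log2 fold change of 0.30, which DESeq2 with the block did not call, and in edgeR the block changed no other member's call. Among the members, depth limited LOXL3, which stood at or near the floor, and the precision of LOX.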
